A study of Mus musculus with 9 samples.

Results

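The genes for the proteins of the cytosolic ribosome were followed in mouse embryonic stem cells by PRO-seq, in which transcribing polymerases are allowed to run on in isolated nuclei and the labelled RNA is sequenced. Protein-coding genes were taken by symbol, Rpl or Rps followed by a number together with Rplp0, Rplp1, Rplp2 and Rpsa, and 14 other symbols of this form (pseudogene, retrogene-like and unrelated names such as Rpl10l, Rpl22l1 and Rps19bp1) were left out. This gave 77 genes, 31 of the small (40S) and 46 of the large (60S) subunit. Each gene was represented by the bidirectional region, a place where polymerase leaves in both directions, with the highest mean count among those centred within 1 kb of either annotated gene end. Such a region was found for 62 of the 77 genes (24 of 40S and 38 of 60S), among 174289 regions in all. All 62 passed the filter on low counts. The choice of region used the mean over all libraries and not the time. The regions of Rps26, Rpl36 and Rpl7a lay just inside the limit, 744, 692 and 637 bp from an end, and the nearest ones of Rpl22, Rpl17 and Rps2 just outside, at 1184, 1486 and 1855 bp.

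Each ribosome carries 1 copy of nearly every ribosomal protein, and the proteins are made in step with ribosomal RNA. Their genes are short and among the most heavily transcribed of growing cells. In mammals their mRNAs start with a C followed by a run of C and T, the terminal oligopyrimidine or TOP tract, through which mTOR signalling sets their translation. Many also carry small nucleolar RNA genes in their introns, whose products guide the modification of ribosomal RNA.

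Every library came from cells of 1 genotype, a Firre knockout carrying an inducible Firre transgene. Firre lies on the X chromosome and makes a long non-coding RNA that stays in the nucleus. They were collected at 0 min without doxycycline and at 15 and 30 min after doxycycline at 1 ng/μL, with 3 libraries at each time. No library had doxycycline without the transgene, so the drug and the transgene cannot be told apart. Separate cultures are not named in the labels, so p-values reflect only how far these libraries spread, which may be technical. The labels give neither the promoter of the transgene nor whether the line was 1 clone.

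Reads in the regions ranged from 3813365 to 5980366 per library, which is not the sequenced depth. Summed over 8 windows, Firre signal was 2.48, 4.93 and 2.62 CPM (counts scaled to the library size) in libraries 1 to 3 at 0 min, 274 to 338 CPM at 15 min and 776 to 790.4 CPM at 30 min. Stem cell markers such as Sox2 and Nanog summed to 1921 to 2104 CPM over 10 of 12 listed genes, with Pou5f1 and Esrrb having no region at a gene end. Neuroectoderm markers (5 of 5 with a region) summed to 48.8 to 52.4 CPM at 0 min, 38.8 to 47.9 at 15 min and 49.3 to 51.2 at 30 min, and trophectoderm markers (3 of 5, Cdx2 and Elf5 without a region) to 2.48 to 3.08, 0.95 to 1.67 and 1.67 to 2.78 CPM. Both sums were lower at 15 min than at 0 min without overlap. No trophectoderm window passed the filter on low counts, so that sum rests on few reads. Of the 3 neuroectoderm windows that passed, 1 had a positive log2 change at 15 min and 0 had an adjusted p under 0.05 by edgeR. The change was 0.61 ± 0.38 (SE) at Pax6 and -0.63 ± 0.30 at Sox1. The part of these 2 marker sets in the changes at 15 min was not tested. Fibroblast, mesoderm and primitive endoderm markers (3 of 8, 2 of 5 and 4 of 7 with a region) summed to at most 5.98 CPM in every library. On the second principal component of all tested regions (13.9% of the variance), 15 min library 3 lay apart at 85.62.

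Promoter sequences are shown to place the TOP tract and the motif words beside the windows. RefSeq promoters on GRCm38.p6 (mm10) were matched to 57 of the 77 genes, 46 of them with a region, and 6 are shown from 100 bases before to 50 bases from the annotated start. Rpl13a and Rps12 had the highest levels at 0 min among genes with a promoter entry, Rps27 and Rpl7a the smallest p at 15 min, and Rpl26 and Rps24 the most negative changes from 15 to 30 min. Capitals mark the longest run of C and T near the start and the motif words found.
Rpl13a: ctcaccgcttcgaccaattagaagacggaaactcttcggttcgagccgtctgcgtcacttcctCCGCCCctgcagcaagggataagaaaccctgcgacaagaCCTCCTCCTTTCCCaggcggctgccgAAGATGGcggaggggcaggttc
Rps12: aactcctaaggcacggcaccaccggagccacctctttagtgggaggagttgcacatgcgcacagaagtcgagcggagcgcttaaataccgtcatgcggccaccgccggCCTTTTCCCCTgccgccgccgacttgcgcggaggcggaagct
Rps27: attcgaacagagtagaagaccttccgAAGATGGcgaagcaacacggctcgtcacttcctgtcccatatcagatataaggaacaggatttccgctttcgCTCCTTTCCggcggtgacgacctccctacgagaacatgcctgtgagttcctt
Rpl7a: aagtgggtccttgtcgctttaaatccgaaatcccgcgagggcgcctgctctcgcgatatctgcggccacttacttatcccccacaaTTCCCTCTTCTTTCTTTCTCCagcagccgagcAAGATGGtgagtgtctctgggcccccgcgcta
Rpl26: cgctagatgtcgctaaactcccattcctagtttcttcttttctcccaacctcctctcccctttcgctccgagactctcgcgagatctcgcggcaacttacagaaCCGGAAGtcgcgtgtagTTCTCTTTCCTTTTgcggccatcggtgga
Rps24: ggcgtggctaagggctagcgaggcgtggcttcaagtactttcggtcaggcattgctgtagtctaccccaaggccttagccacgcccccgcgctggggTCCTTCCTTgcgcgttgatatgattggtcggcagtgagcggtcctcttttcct

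These lie at chr7:45128696-45128845, chr10:23787160-23787309 and chr3:90213599-90213748 on the minus strand, and at chr2:26910707-26910856, chr11:68901466-68901615 and chr14:24490578-24490727 on the plus strand. Positions are bases after the annotated first base, or before it where negative. The pyrimidine run began at 2 in Rpl13a (14 bases), at 8 in Rps12 (11 bases) and at -2 in Rps27 (9 bases). It began at -14 in Rpl7a (21 bases), at 21 in Rpl26 (14 bases) and at -3 in Rps24 (9 bases). Each of the 6 thus had a pyrimidine run of at least 9 bases at or near the annotated start, not always beginning on it. The word AAGATGG, the core of sites of the factor YY1, stood after the start in Rpl13a and Rpl7a and before it in Rps27. Rpl26 carried CCGGAAG, a word of ETS factors, and Rpl13a CCGCCC, the word of SP1 (GGGCGG) on the other strand.

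Over the 46 genes with a region and a promoter entry, 17 (37.0%) had C as the annotated first base, against 14.9% of the promoters of 8644 coding genes with a tested region. A TOP-like start, C followed by C or T through at least base 5, was found in 11 (23.9%) against 2.39%. A run of at least 8 C or T within 25 bases of the start was found in 30 (65.2%) against 21.7%. TATAAA on the coding strand between -40 and -15 was found in 0 of the 46 against 1.19%. In the 300 bases of the table, on both strands, CCGGAAG was found in 41.3% against 18.9%, AAGATGG in 15.2% against 7.18%, and GGGCGG, the word of SP1, in 56.5% against 66.4%. Words are descriptions of the sequence and not evidence of binding. The 11 genes with a TOP-like annotated start, among them Rps27, Rps6, Rps18 and Rpl15, had a median log2 change of 0.10 at 15 min against 0 min, and the other 35 had 0.19. The difference was not tested.

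Before doxycycline these genes were among the strongest regions at coding genes. All windows were 600 bp wide, but they lie at different parts of genes, and 17 of the 62 are shared with an end of another gene. CPM per window thus ranks windows, not the transcription of whole genes. At 0 min, 61 of the 62 lay above the median of coding-gene windows (23.0 CPM) and 54 lay above their 90th percentile (84.3 CPM). The highest level was 183-fold the lowest. The regions were also wider, with a median width of 1019 bp for the 62 against 694 bp for coding genes.

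The highest mean was that of Rps29, which encodes a zinc-binding protein of the 40S head, at 1140.5 ± 688 CPM (SD, n = 3 libraries, as for all means below). It was followed by Rpl13a at 890.4 ± 104 CPM, a 60S protein also known as a translational repressor in inflammation, and by Rpl36 at 721 ± 57.5 CPM, in a window inside the gene, centred 692 bp from an end and shared with the end of the protease gene Lonp1. Rpl3, which reaches into the peptidyl transferase centre, had 548 ± 8.3 CPM. Rpl23a, at the exit of the nascent chain tunnel, had 541 ± 14.7 CPM. Libraries of Rpl23a and Rpl3 overlapped.

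At the low end stood Rpl38, a 60S protein known for its part in Hox mRNA translation, at 6.23 ± 0.526 CPM, the one gene below the coding median. Its window was centred 475 bp from the annotated gene end and 1237 bp before the start in its promoter entry. The window thus does not cover that start. Rplp0, the base of the ribosomal stalk, had 30.2 ± 6.81 CPM. Rpl11, which with Rpl5 and 5S RNA can bind Mdm2, had 33.9 ± 10.3 CPM, while Rpl5 had 172 ± 14.7 CPM. Rpl34 had 45.7 ± 3.09 CPM and Rpl36a 57.8 ± 13.6 CPM. Libraries of Rplp0 and Rpl11 overlapped, as did those of Rpl11 and Rpl34, and Rpl38 lay below all others in every library. The other stalk genes, Rplp1 and Rplp2, had 188 ± 30.8 and 113 ± 15.1 CPM.

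**Figure D1:**
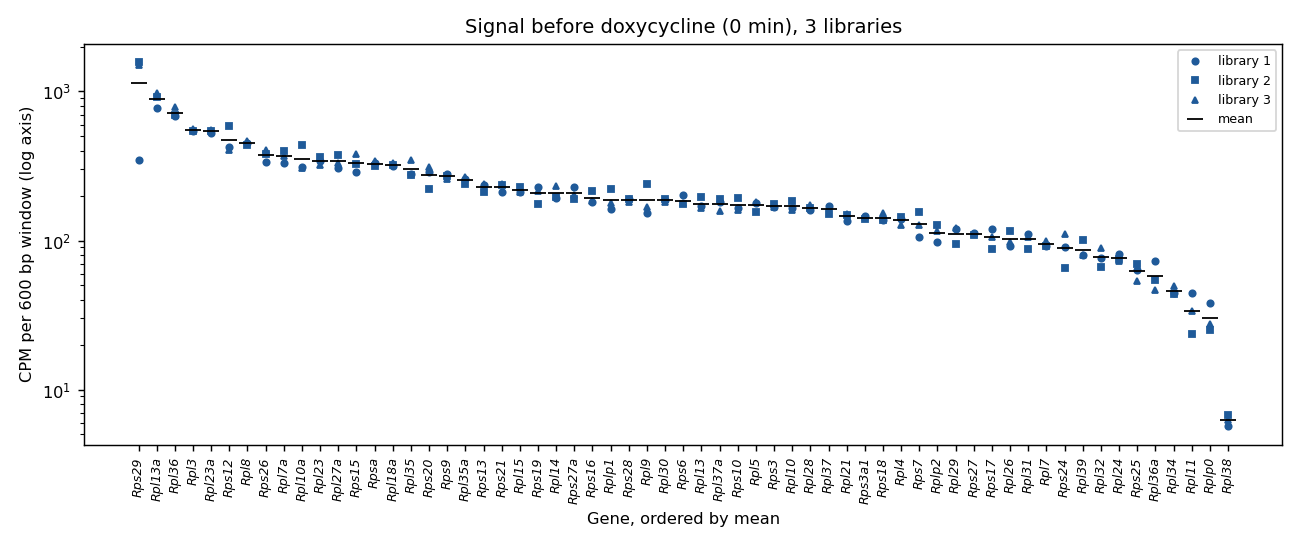
CPM per 600 bp window at 0 min for 61 of the 62 genes, ordered by mean, on a log axis; points are the 3 libraries and bars the means. The means run from 6.23 CPM at Rpl38 to 1140.5 CPM at Rps29, whose library 1 (347 CPM) lies far below libraries 2 and 3.

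At 15 min the windows of 5 genes rose and 0 fell, and most of the others had small positive changes. The call was an adjusted p under 0.05 from edgeR's quasi-likelihood test, adjusted over 54299 tested regions, and 8.25% of all tested regions were called at this time (4.29% higher and 3.96% lower). The share of these genes called, 8.06%, is near that background, with all calls in 1 direction. The count of 5 became 2 without 0 min library 3, 3 without 15 min library 1 or 2, and 8 without 15 min library 3. The log2 change was positive for 51 of the 62 (82.3%), with a median of 0.16 and quartiles of 0.08 and 0.27. Without 15 min library 3 it was positive for 45, with a median of 0.11. Over all tested regions the median was 0.02, and over the windows of 9496 coding genes it was -0.16, with 32.1% positive. Among the 667 coding-gene windows with a mean of 100 CPM or more the median was 0.03, with 54.4% positive, and 53 were called higher and 48 lower (15.1% called). At 15 min, 14 genes (22.6%) had all 3 libraries above all 3 of 0 min, against 13.7% of all tested regions and 20.2% of those 667 windows, and 1, Rpl8, had all 3 below, against 11.8% of all tested regions and 14.1% of the 667.

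The calls were spread over both subunits. Of 24 genes of 40S, 3 rose and 19 had a positive change (median 0.19). Of 38 genes of 60S, 2 rose and 32 had a positive change (median 0.16).

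Rps27 encodes a zinc finger protein of the small subunit. Its window (chr3:90213389-90213988) is centred 40 bp from the annotated start shown above and is also the window of the neighbouring gene Rab13, a small GTPase gene. The values were 113, 109 and 110.4 CPM at 0 min, 170.3, 152 and 154 CPM at 15 min and 127, 150.2 and 148 CPM at 30 min. All libraries at 15 min lay above those of both other times, and those at 30 min above those at 0 min. The log2 change at 15 min was 0.52 ± 0.11 (SE, n = 3 libraries per time), or 1.43-fold, at an adjusted p of 0.00276 by edgeR. It was called under all 20 alternatives, with adjusted p up to 0.0238. Reads of the 2 genes in this window cannot be told apart.

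Rps27a encodes a fusion of ubiquitin with a small subunit protein. Its window (chr11:29547562-29548161) is also that of Clhc1. It had 229, 190.5 and 202 CPM at 0 min, 307, 249 and 277 CPM at 15 min, and 222, 233 and 245 CPM at 30 min. The libraries at 15 min lay above those of both other times, while those of 0 and 30 min overlapped. The log2 change was 0.42 ± 0.10 at an adjusted p of 0.0112 by edgeR. The call was lost without 0 min library 2, 0 min library 3 or 15 min library 1 (adjusted p = 0.0529, 0.0571 and 0.0883).

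In the large subunit, Rpl3 was called with the smallest change of the 5. Its window (chr15:80083137-80083736) had 545, 542 and 558 CPM at 0 min, 697, 628 and 662 CPM at 15 min and 607, 573 and 624 CPM at 30 min. All libraries of both later times lay above those of 0 min, and those at 15 min lay above those at 30 min. The log2 change at 15 min was 0.27 ± 0.08 at an adjusted p of 0.0378 by edgeR. DESeq2 did not call it (adjusted p = 0.0708), and of the 9 omissions of 1 library it was called only without 15 min library 3.

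Rpl7a encodes a 60S protein, and its introns hold small nucleolar RNA genes. It has 2 windows. The stronger one (chr2:26913650-26914249) is centred 637 bp from the far end of the gene and is also that of Surf1, a gene for an assembly factor of cytochrome c oxidase. There the values were 329.6, 401 and 369 CPM at 0 min, 446, 527 and 435 CPM at 15 min and 444, 416 and 439 CPM at 30 min. Both later times lay above 0 min in all libraries. The log2 change at 15 min was 0.36 ± 0.10 at an adjusted p of 0.0214 by edgeR. The call was lost without 0 min library 1 or 3 or without 15 min library 2 (adjusted p = 0.138, 0.0673 and 0.179).

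The window at the start of Rpl7a (chr2:26910415-26911014), beside the promoter shown above, had 284 ± 17.2 CPM at 0 min, 305 ± 6.15 at 15 min and 291 ± 21.0 at 30 min. Its log2 change at 15 min was 0.10 ± 0.09 at an adjusted p of 0.54 by edgeR. The call under the name Rpl7a thus belongs to the window it shares with Surf1. Of the 43 genes whose window lies on the start side by the annotated gene ends, 1 (Rps27) was called at 15 min.

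**Figure D2:**
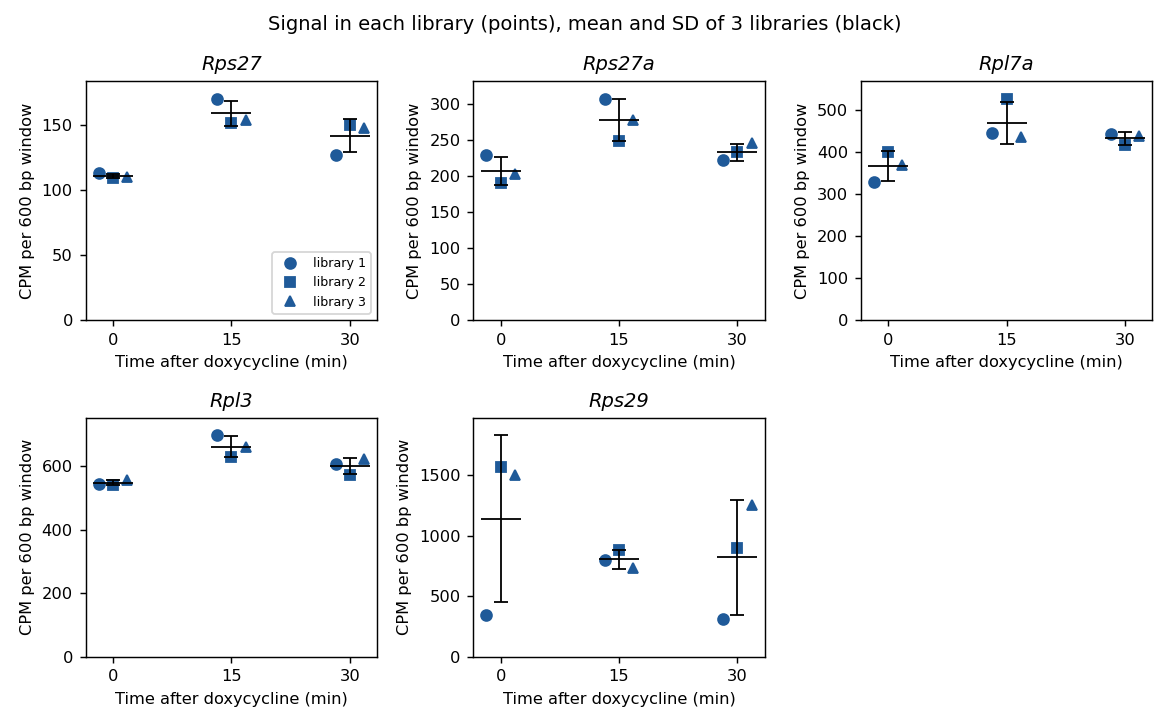
CPM per 600 bp window in each library at 0, 15 and 30 min for 4 of the 5 genes called at 15 min and for Rps29; points are libraries, black bars the mean and SD of 3. In the 4 called genes every library at 15 min lies above every library at 0 min, while the libraries of Rps29 spread from 310.4 to 1571 CPM.

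Several uncalled genes came near the threshold. Rps28 encodes a small protein at the mRNA exit channel, and its window is also that of Ndufa7. This window had 189.7, 189.6 and 180.4 CPM at 0 min and 220.2, 229.7 and 241 CPM at 15 min, without overlap. Its log2 change was 0.30 ± 0.10 (adjusted p = 0.0516 by edgeR). Rps12, which hosts small nucleolar RNA genes, had 424, 583 and 406 CPM at 0 min and 624, 635 and 530.2 CPM at 15 min, with overlap, and a change of 0.34 ± 0.11 (adjusted p = 0.0546). Rpl36a on the X chromosome had the third largest change, 0.48 ± 0.16 (adjusted p = 0.0576), with libraries at 72.8, 54.2 and 46.4 CPM at 0 min and 102, 72.6 and 68.0 CPM at 15 min. Without 15 min library 3, Rps12, Rpl36a and Rpl10 were called as well, giving 8 genes. In all, 21 of the 62 had an unadjusted p under 0.05, and DESeq2 called 4 of the 5.

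Of the 4 genes on the X chromosome, the chromosome of Firre, Rps4x had no window at an end. Rpl10, which joins the 60S subunit last and closes its active site, had 169.8 ± 11.8 CPM at 0 min, 209 ± 30.2 at 15 min and 209.9 ± 5.2 at 30 min, with log2 changes of 0.30 ± 0.11 and 0.31 ± 0.11. Rpl39, a protein of the exit tunnel, had 86.7 ± 12.7, 96.6 ± 14.4 and 90.1 ± 3.26 CPM, with changes of 0.16 ± 0.13 and 0.05 ± 0.13. Rpl36a had 57.8 ± 13.6, 80.9 ± 18.5 and 70.9 ± 7.08 CPM. None of the 3 was called by edgeR or by DESeq2 in any comparison. Rpl36a had an unadjusted p under 0.05 at 15 min and Rpl10 at both times.

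The largest negative changes at 15 min were those of Rps29, Rps15 and Rps26, and 0 were called. Rps15, whose C-terminal tail reaches the decoding site, had 331 ± 46.6 CPM at 0 min and 298 ± 35.9 at 15 min (log2 -0.15 ± 0.11). Rps26, at the mRNA exit channel, had 374 ± 33.6 and 344 ± 25.8 CPM (log2 -0.12 ± 0.09). Both windows lie at the far end of the gene and their libraries overlapped. That of Rps15 is also the window of Gm30682. The second window of Rps26, at its start, had 34.5 ± 6.38 CPM at 0 min and 45.8 ± 13.6 at 15 min. Its log2 change was positive, 0.41 ± 0.18, and uncalled (adjusted p = 0.168 by edgeR). The libraries of Rpl8, a protein of the peptidyl transferase centre, did not overlap, with 449.9, 436 and 467 CPM at 0 min and 417, 407 and 430.4 CPM at 15 min, at a log2 change of -0.11 ± 0.08 (adjusted p = 0.467 by edgeR). With scaling factors from gene-end regions alone, the changes of Rps15, Rps26 and Rpl8 were not negative (0.00, 0.03 and 0.05), and Rps29 was the 1 gene of the 62 with a negative change (-0.36).

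Rps29 had the widest spread between libraries at 0 and 30 min, with coefficients of variation of 60.3% and 58.0% against medians of 8.98% and 5.87% over the 62 genes. Its window (chr12:69158870-69159469) covers 175 bp of Rn7s1, a gene of 7SL RNA, the RNA of the signal recognition particle. The values were 347, 1571 and 1504 CPM at 0 min, 798, 883 and 732 CPM at 15 min and 310.4, 898 and 1252 CPM at 30 min. Library 1 at 0 and at 30 min was far below the others, and all groups overlapped. The log2 change at 15 min was -0.50 ± 0.35 (adjusted p = 0.406 by edgeR). It was -0.95 ± 0.25, and called (adjusted p = 0.0331), without 0 min library 1, and -0.54 ± 0.09, and called (adjusted p = 4.11e-06), with no filter on low counts.

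A window covering 269 bp of the second 7SL gene, Rn7s2, on the same chromosome and away from any ribosomal protein gene, had 491, 2819 and 2736 CPM at 0 min. It had 1249.8, 1531 and 1209 CPM at 15 min and 423, 1742 and 2091 CPM at 30 min. Within each time the 3 libraries stood in the same order in this window as in that of Rps29. The part of 7SL RNA in the Rps29 value was not tested.

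**Figure D3:**
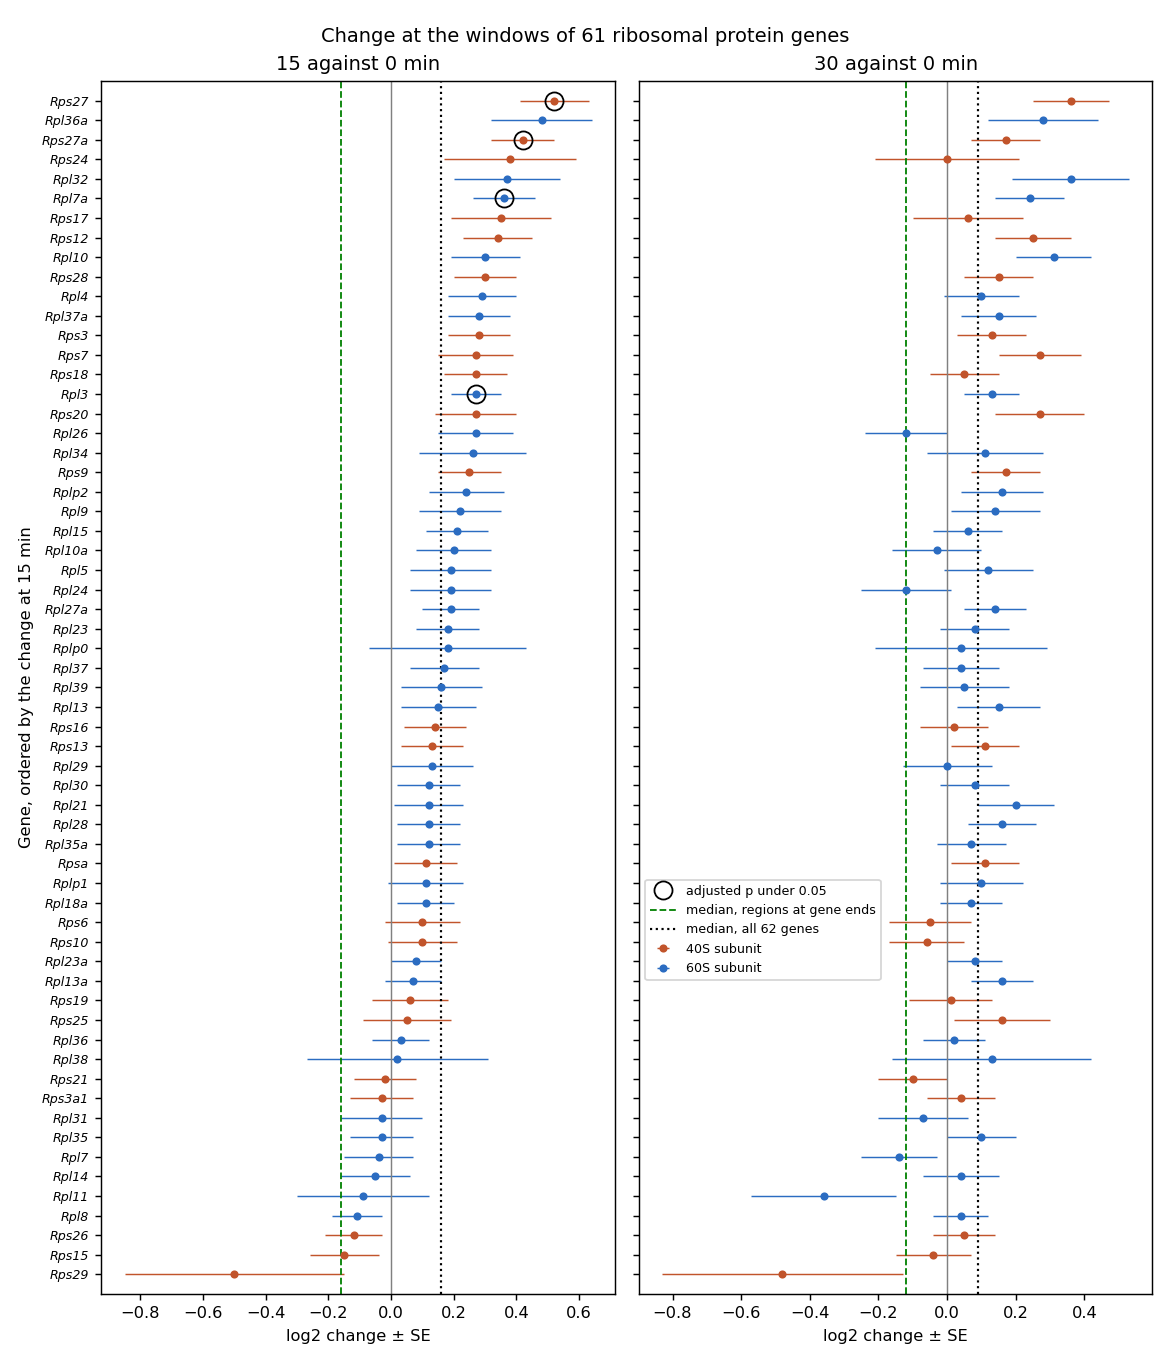
log2 change with its SE for 61 of the 62 genes at 15 and at 30 min against 0 min, ordered by the change at 15 min and coloured by subunit; circles mark calls among those shown, and dashed and dotted lines the medians of regions at gene ends and of the 62 genes. The medians of the 62 genes (0.16 and 0.09) lie to the right of those of regions at gene ends (-0.16 and -0.12), and Rps29 is the lowest point in both panels.

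At 30 min the window of 1 gene was higher than at 0 min by the test, and 50 of the 62 had a positive change. The count of 1 became 0 without 0 min library 1 or 3, without 15 min library 2, or without any 1 library of 30 min, and also with DESeq2 size factors or library size alone. The background of calls was 1.74% of all tested regions (1.24% higher and 0.497% lower). The median log2 change was 0.09, against a median of -0.00 over all tested regions and -0.12 over regions at gene ends. Over the 667 coding-gene windows with a mean of 100 CPM or more the median was 0.01. For 11 genes (17.7%) all 3 libraries lay above those of 0 min, against 11.0% of all regions and 14.7% of those 667 windows. For 1 gene, Rpl7, all 3 lay below, against 9.39% of all regions and 10.9% of the 667. The 15 and 30 min comparisons share the 0 min libraries, so they are not independent.

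Rps27 had a log2 change of 0.36 ± 0.11 at 30 min and was not called (adjusted p = 0.0849). Rpl32 had 0.36 ± 0.17, with overlapping libraries. The lowest changes after Rps29 were those of Rpl11 at -0.36 ± 0.21 and Rpl7 at -0.14 ± 0.11, both uncalled. In all, 7 of the 62 had an unadjusted p under 0.05.

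From 15 to 30 min, 0 of the 62 genes were called by edgeR and 0 by DESeq2, with 5 at an unadjusted p under 0.05. The background was 0.704% of all regions (0.214% higher and 0.49% lower). The change was positive for 15 of the 62 (24.2%), with a median of -0.08 against -0.01 over all regions and 0.04 at gene ends. It was positive for 24 without 15 min library 3 (median -0.05) or without 30 min library 1 (median -0.04), and for 10 with scaling factors from gene ends (median -0.13). Mitochondrial ribosomal protein genes (median -0.09, 26.6% positive) and ribosome biogenesis genes (median -0.08, 24.4% positive) had nearly the same values. A mostly negative change in this step was thus not particular to the 62 genes. The medians of the other related lists described below lay between -0.04 and 0.01. For 9 of the 62 genes (14.5%) all libraries at 30 min lay below those at 15 min. The share was 8.17% of all regions and 11.4% of the 667 coding-gene windows with a mean of 100 CPM or more. For 3 genes (4.84%) they lay above, against 7.8% of all regions and 12.3% of the 667. The largest negative change was at Rpl26, known for binding p53 mRNA, with 126, 104 and 137 CPM at 15 min and 89.6, 93.4 and 97.4 CPM at 30 min (log2 -0.39 ± 0.12, adjusted p = 0.192 by edgeR). Rps24 followed with -0.38 ± 0.21, where 30 min library 1 had 47.7 CPM and the other two 113 and 106 CPM. Rpl24, which bridges the subunits, had -0.31 ± 0.13. The largest positive changes were those of Rps26 (0.17 ± 0.09), Rpl8 (0.14 ± 0.08) and Rpl35 (0.13 ± 0.10), each without overlap and uncalled.

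By mean level, 44 of the 62 genes were highest at 15 min, 12 at 30 min and 6 at 0 min, and 39 stood in the order 0, 30, 15 min from low to high. Summed over the 61 genes other than Rps29, the signal was 13042, 13713 and 13721 CPM at 0 min. It was 14981, 14496 and 15669.8 CPM at 15 min and 14120.3, 14588 and 14770 CPM at 30 min. In this sum every library of the later times lay above those of 0 min, and those at 15 and 30 min overlapped. With Rps29 included, the sums were 13389, 15284 and 15225 CPM at 0 min, 15779, 15379 and 16401 at 15 min and 14431, 15487 and 16022 at 30 min, where those of 0 and 30 min overlapped. The 62 windows together held 1.37% to 1.59% of the reads in regions.

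The 24 genes that carry a small nucleolar RNA gene, such as Rpl3, Rpl7a, Rps12 and Rpl13a, gave a positive change for 23 at 15 min and for 24 at 30 min, with medians of 0.17 and 0.12. The other 38 gave 28 and 26, with medians of 0.13 and 0.05. The 17 genes whose window is also an end of another gene (27.4%, against 25.3% of coding-gene windows) held 3 of the 5 calls and had a median of 0.22 at 15 min. The 43 with a window of their own, which holds neither an end of another gene nor a small RNA gene, held the other 2 and had a median of 0.15. None of these differences was tested.

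Other genes of ribosome production gave smaller medians than the ribosomal protein genes at 15 min. The share with a positive change was 82.3% for the 62 genes. It was 75.6% for ribosome biogenesis genes, 70.0% for ribosomal protein genes outside the symbol rule and 60.9% for mitochondrial ribosomal protein genes. Other mRNAs with a TOP tract had 61.9%, RNA polymerase I and III genes 53.3% and proteasome genes 41.9%. A mostly positive change was thus not particular to the 62 genes. Mitochondrial ribosomal protein genes had 64 tested, 3 higher and 5 lower, with a median of 0.11. Among them Mrps18b rose from 197 ± 22.1 to 261 ± 28.0 CPM (log2 0.41 ± 0.10) and Mrpl14 fell from 43.0 ± 7.3 to 24.0 ± 5.27 CPM (log2 -0.85 ± 0.17). Ribosome biogenesis genes had 41 tested, 0 higher and 1 lower, the RNA helicase gene Ddx47 (log2 -0.82 ± 0.26, adjusted p = 0.0483), with a median of 0.10, and DESeq2 called 0 of them.

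RNA polymerase I and III genes had 30 tested, 2 higher and 1 lower, with a median of 0.02. Both genes named from this list encode subunits that the 2 polymerases share and moved in opposite directions. Polr1c rose from 41.4 ± 3.41 to 69.7 ± 6.17 CPM at 15 min (log2 0.76 ± 0.13, adjusted p = 0.000615), and fell back to 42.6 ± 3.03 CPM at 30 min (log2 -0.71 ± 0.13 from 15 min, adjusted p = 0.00391 by edgeR). Polr1d fell from 25.4 ± 4.76 to 11.8 ± 2.45 CPM (log2 -1.10 ± 0.20, adjusted p = 0.000967).

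Other mRNAs with a TOP tract, such as those of translation elongation factors, had 21 tested, 0 higher and 1 lower, with a median of 0.06. The lower one was Eef1d, of the elongation factor 1 complex, from 70.3 ± 7.85 to 46.5 ± 13.6 CPM (log2 -0.61 ± 0.15, adjusted p = 0.0146 by edgeR). Npm1, the nucleolar chaperone gene, had 169 ± 11.6 and 224 ± 34.1 CPM (log2 0.40 ± 0.13, adjusted p = 0.0528). Ribosomal protein genes outside the symbol rule, such as Fau and Rack1, had 10 tested and a median of 0.12, with 0 called by edgeR, 0 at an unadjusted p under 0.05 and 0 called by DESeq2. Proteasome genes, another large housekeeping complex, had 31 tested and a median of -0.03, with 0 called by edgeR, 1 at an unadjusted p under 0.05 and 0 by DESeq2. These lists differ in level from the ribosomal protein genes, with medians of 30.5 to 82.6 CPM at 0 min against 185 CPM.

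**Figure D4:**
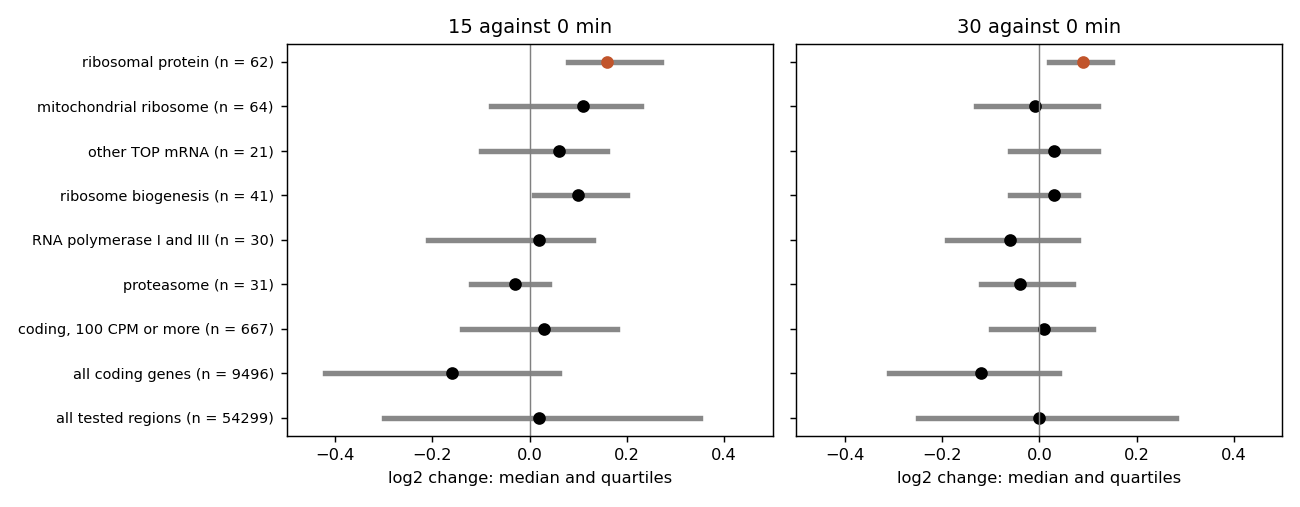
Median (point) and quartiles (bar) of the log2 change at 15 and 30 min against 0 min for the 62 ribosomal protein genes, related lists, coding-gene windows and all tested regions, with the number tested. The ribosomal protein genes have the highest median in both panels, 0.16 and 0.09.

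The changes depended on what the libraries were scaled to, in size and for some genes in sign, while the median of these genes at 15 and at 30 min stayed positive under the 4 scalings. When only gene-end regions set the scaling factors, the median over all regions at 15 min moved from 0.02 to 0.19 and that of these genes from 0.16 to 0.32, so that 20 genes were called higher and 61 of the 62 had a positive change (57 at 30 min). The sign turned for 10 genes at 15 min and for 7 at 30 min, none of them called in the comparison scaled on all regions. With DESeq2 size factors the median was 0.14, and with library size alone 0.13. A scaling shifts the change of every region by nearly the same amount, so the distance between the median of these genes and that of regions at gene ends (0.33 on the log2 scale at 15 min) does not bear on the choice of scaling. The Drosophila nuclei added to each library, 1% per the labels, were not analysed here, so levels are relative to other mouse regions.

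**Figure D5:**
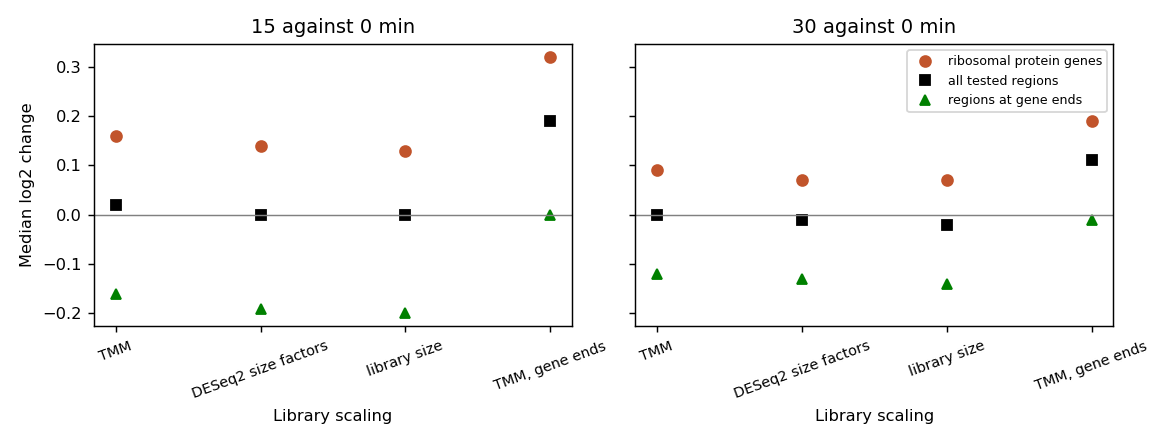
Median log2 change of the ribosomal protein genes, all tested regions and regions at gene ends under 4 library scalings, at 15 and 30 min against 0 min. The 3 sets move together with the scaling, and the ribosomal protein genes lie at 0.13 to 0.32 in the left panel and 0.07 to 0.19 in the right.

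For 15 genes no region was centred within 1 kb of an end. Among them are Rpl12, Rpl22, Rpl6, Rpl18, Rps15a, Rpl41, Rpl19, Rpl27, Rps23, Rps2, Rps14, Rpl17 and Rps4x, with the nearest region 1184 to 14549 bp from an end. Their transcription at the gene start was not analysed here, and the statements above hold for the 62 genes with a window.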

How the data were processed

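The deposited table holds raw read counts per 600 bp window, made by the authors for 174289 bidirectional regions in 9 PRO-seq libraries. The other deposited values are the start and end coordinates in the region lists, in bp, per the file headers and values. HISAT2, featureCounts and DESeq2 1.26.0 on mm10 are named per the submitters' processing notes, without settings, strand or the treatment of the 50841 windows that overlap another. The file names name Tfit and muMerge.

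Ribosomal protein genes were matched by symbol to the RefSeq gene table of GRCm38.p6, which gives no strand. The strand of 57 of the 77 genes was taken from the promoter table. The region with the highest mean count was kept per gene. The genes, lists and comparisons were chosen with earlier results of these data known, so no count over them is independent support.

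Tests were run with edgeR 4.0.16 in R 4.3.3 (quasi-likelihood test, all 9 libraries in 1 fit, time as a factor, TMM factors, filterByExpr, 54299 regions tested and 119990 removed), and tables and figures were made in Python 3.11.15. Two-sided p-values received a Benjamini-Hochberg adjustment over every tested region, with calls under 0.05. An SE was obtained as the log2 change divided by the root of F. CPM used TMM-scaled library sizes, and a count of 3 equals 0.502 to 0.787 CPM. The procedure was tested on simulated counts, with regions changed between 0 and 15 min. At log2 changes of 0.5 and -0.5, 8% and 6% of 50 regions each were recovered. At 1.0 and -1.0 it recovered 86% and 64%, with 0 false calls. The changed regions came from those with a mean of at least 50 counts. The 62 genes had a median of 971, so these shares need not hold for them.

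Genes named are those called, those with the 3 largest positive and negative changes per comparison (mean of at least 20 counts), the 5 highest and 5 lowest levels, X-linked genes, and those without a window; of each related list, the 2 of smallest p at 15 min; some of these are not reported here by name, though the counts and medians include them. Rpl8, Rps28, Rps12, Rpl5, Rplp1, Rplp2 and the 7SL genes were added after their values were seen. Alternatives were DESeq2 1.42.0, other scalings, filters, windows, distances and designs, and each library left out. Libraries of 1 time differed beyond sampling noise (chi-squared per degree of freedom 2.26 to 3.76), with a fitted coefficient of variation of 15.1%.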

Additional observations from a re-analysis of the deposited data

Results flagged for a closer look

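Reads were also present in windows of these genes that the comparisons above did not use, each above the 3 counts that a count of 0 allows; there are no control libraries without cells to set them against. The second window at an end held 13054 reads over the 9 libraries at Rpl7a, 1407 at Rps25, 1847 at Rps26 and 21 at Rpl32, the last with 0 to 8 reads per library and overlapping the window used for Rpl32. For genes with no region at an end, windows inside the gene held 40397 reads at Rps2, 12391 at Rpl19, 5740 at Rpl22 and 2389 at Rpl18, and the pair of overlapping windows inside Rpl17 held 1725 and 1129.

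Rps2 had 857 ± 94.3 CPM inside the gene at 0 min (SD, n = 3 libraries), 939 ± 58.7 at 15 min and 958 ± 106 at 30 min (log2 0.13 ± 0.09 at 15 min, SE). Rpl19 had 267 ± 13.1, 289 ± 15.4 and 283 ± 10.4 CPM (log2 0.12 ± 0.09). Neither was called. The window inside Rpl18 had 41.3 ± 11.8, 60.3 ± 14.1 and 56.9 ± 1.67 CPM, and was called at 15 min (log2 0.55 ± 0.17, adjusted p = 0.0456 by edgeR) and not at 30 min (adjusted p = 0.183). Rpl22 had a log2 change of -0.23 ± 0.13 at 15 min, uncalled.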

How the results depend on the processing

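The count of genes called at 15 min was 5. It was 20 with TMM factors set on gene ends alone, 3 with only the 2 groups compared, and 2 to 8 when 1 library was left out (2 without 0 min library 3, 3 without 15 min library 1 or 2, 8 without 15 min library 3). With choices added after seeing the data it was 2 among genes with a window of their own and 1 among those with a window at the gene start. At 30 min the count of 1 became 2 with TMM factors from gene ends, 0 with DESeq2 size factors, library size alone or windows at the gene start, and 0 to 1 when 1 library was left out. The median change moved from 0.16 to 0.32 at 15 min and from 0.09 to 0.19 at 30 min with TMM factors from gene ends. Under the other alternatives it ranged from 0.11 to 0.18 at 15 min and from 0.06 to 0.10 at 30 min. Between 15 and 30 min it ranged from -0.13 to -0.04 over all alternatives, with 0 genes called in each. Apart from the smaller sets of genes, the cause of these moves was not tested. Rps27 at 15 min was called under all 20 alternatives, Rps27a under 17, Rpl7a under 13 and Rpl3 under 7, and no called change reversed. Signs of uncalled genes did turn: with TMM factors from gene ends 10 genes turned at 15 min, among them Rps15, Rps26 and Rpl8, and 7 at 30 min.

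With the replicate block, 7 genes were called at 15 min (Rps12 and Rpl36a added) and 1 at 30 min. Libraries with the same number had correlated deviations of -0.0479 to 0.175, not all over 0.1, so the numbers were not taken as pairs. With a median SE of 0.11, changes near 0.2 on the log2 scale lie close to the error of a single gene, and counting intervals cover counting error only.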
